A study of Mus musculus with 23 samples.

Results

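Astrocyte genes, 41 in all, were followed through 23 RNA-seq libraries of mouse hippocampus. They were chosen by symbol out of 54232 gene identifiers: 32 are genes known to be induced in reactive astrocytes, and 9 are core markers that astrocytes express at rest (Aldh1l1, Aqp4, Slc1a2, Slc1a3, Gja1, Gjb6, Kcnj10, Sox9 and Glul). The mice were C57BL/6, and the study varied a tau transgene and the dose of LSD1, a histone demethylase encoded by Kdm1a. At 9 months of age the groups were wild type (WT, 4 libraries), mice with the PS19 transgene (PS19, 4), mice with PS19 and 1 deleted Lsd1 allele (PS19;Lsd1Δ/+, 4, called PS19 heterozygotes from here on) and mice with 1 deleted Lsd1 allele and no transgene (Lsd1Δ/+, 2). PS19 is a transgene for human tau with the P301S mutation. At 11 months all mice had an adeno-associated virus injected into the hippocampus. Wild type and PS19 mice received the HA control virus (WT_HA and PS19_HA, 3 each), and further PS19 mice received a virus carrying LSD1 (PS19_rescue, 3). The labels call the virus specific to neurons and name no promoter for it or for the transgene.

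Astrocytes take up glutamate and potassium, couple to each other through gap junctions and wrap blood vessels with endfeet that carry water channels. After injury and in neurodegeneration they become reactive: they make more of the intermediate filament proteins GFAP and vimentin and express secreted, adhesion and signalling genes that are low at rest. Cytokines that signal through the shared receptor gp130 and the transcription factor STAT3 are a known route to that state, and so are factors made by activated microglia. Published panels divide reactive genes into a pan-reactive class, a class tied to neuroinflammation (A1) and a class tied to ischaemia (A2). The 32 reactive members comprised 12 pan-reactive, 3 A1 and 10 A2 genes, with 7 further reactive genes outside those panels.

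The libraries held 15451494 to 24644977 counted reads. Levels are read counts scaled to library size (CPM) by the TMM method over all libraries and listed in the order of the replicate numbers, which carry no rank. Differences between groups are log2 differences from edgeR's quasi-likelihood fit with their standard error (SE), and a gene is called when its Benjamini-Hochberg adjusted p over all genes fitted is under 0.05. DESeq2, the second test run on the same counts, is named wherever its calls are given. On counts simulated from these libraries it made many more false calls than edgeR and exceeded the false discovery rate its threshold stands for, so its calls are the less strict ones. At the 9-month spread edgeR recovered 6 of 100 changes of 2-fold and 59 of 100 of 4-fold, against 27 and 85 for DESeq2. At the 11-month spread edgeR recovered 41 and 87, against 57 and 96. The lack of an edgeR call is therefore weak evidence that a member did not differ. Nothing in the labels says that replicates came from separate animals, so p-values measure the spread between these libraries. Kdm1a stood at 53.1 to 58.4 CPM in WT, 36.9 and 37 in Lsd1Δ/+ and 37.3, 36.5, 55.2 and 43.6 in PS19 heterozygotes, so the library labelled PS19;Lsd1Δ/+ replicate 3 lay inside the WT range, against its label. In PS19_rescue it stood at 10853, 2950 and 1763 CPM, against 59.2 to 61.1 in PS19_HA. Mitochondrially encoded transcripts took 33.9% of WT replicate 3, 16.1% of PS19 replicate 3, 16.2% of WT_HA replicate 2 and 2.86% to 6.04% of the others. Sex-linked transcripts were of the male type in all 9-month libraries, while each 11-month group held 1 male-type and 2 female-type libraries. No core marker was at 0 in any library. Per kilobase of exon, Glul, which makes glutamine, and Slc1a2, the main glutamate transporter, had the highest WT levels of all members (417 and 258 CPM per kb), and Gfap stood at 75.2. In whole tissue a larger share of a cell type and more RNA of a gene per cell cannot be told apart.

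In PS19 mice at 9 months the filament genes and most pan-reactive genes stood several-fold above WT on average, with a wide spread among the PS19 libraries. Gfap (chr11:102887336-102900912, minus strand, GRCm38) encodes the main astrocyte filament protein and stood at 404, 344, 201 and 321 CPM in WT and 3432, 656, 766 and 2750 CPM in PS19. Every PS19 library was above every WT library, and replicates 1 and 4 were far above replicates 2 and 3. Its log2 difference was 2.58 ± 0.48 (SE, n = 4 and 4; edgeR adjusted p = 0.124, DESeq2 adjusted p = 2.25e-05). Vim (chr2:13573927-13582826, plus strand), which encodes vimentin, stood at 26, 38.7, 23.4 and 27.6 CPM in WT and 261, 41.4, 65.6 and 225 CPM in PS19. The groups did not overlap, but PS19 replicate 2 was close to the highest WT library. Its log2 difference was 2.35 ± 0.47 (edgeR adjusted p = 0.126, DESeq2 adjusted p = 0.000228).

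**Figure D1:**
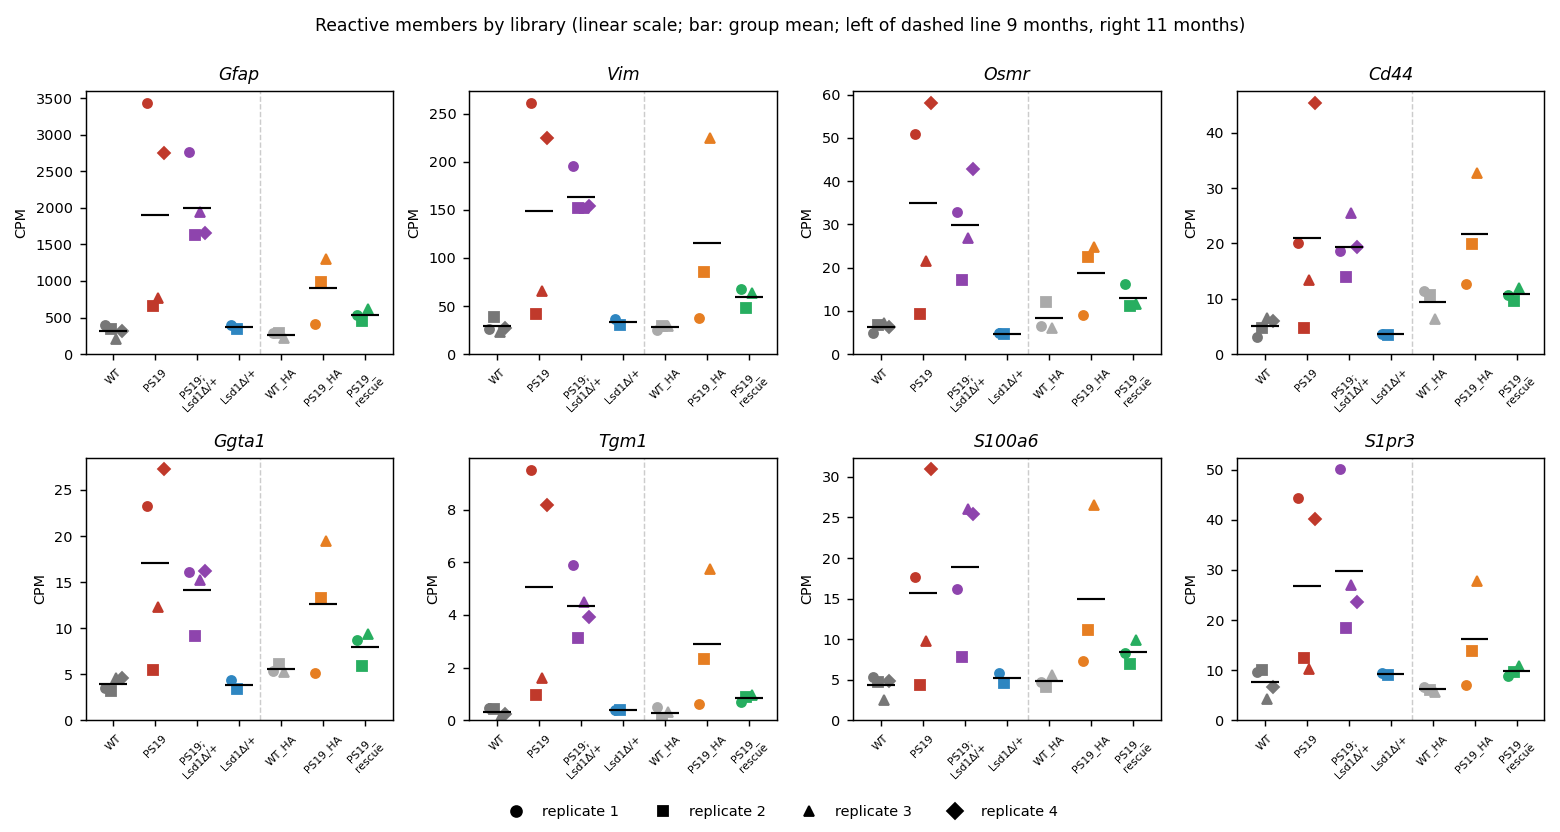
CPM (linear axis) of 8 reactive members in each library, by group; symbols give the replicate number, bars the group mean, and a dashed line separates 9 from 11 months. In PS19, replicates 1 and 4 lie above replicates 2 and 3 in all 8 panels, and the 4 PS19 heterozygote libraries lie between 1627 and 2757 CPM for Gfap.

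Of the 40 members that passed the filter on low counts, 39 were higher on average in PS19 than in WT, where 46.5% of all genes fitted were higher. edgeR called 0 members (it called 0.00497% of all genes higher) and gave 18 an unadjusted p under 0.05, all higher (3.45% of all genes higher and 0.462% lower). DESeq2 called 10 members higher and 0 lower (0.929% of all genes higher and 0.0199% lower). The groups did not overlap for 7 members, all higher in PS19 (1.02% of all genes). The median log2 difference was 1.34 over the 31 reactive members fitted, 0.41 over the 9 core members and -0.02 over all genes. Slc10a6, a transporter of sulfated steroids, did not pass the filter, with 0 reads in every WT library and at most 8 in any library.

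The pan-reactive class held 7 of the 10 members that DESeq2 called, and its 12 genes had a median log2 difference of 2.03. Osmr, the receptor subunit for oncostatin M, stood at 4.9, 6.68, 7.24 and 6.22 CPM in WT and 50.8, 9.21, 21.6 and 58.1 in PS19, without overlap (2.47 ± 0.49, DESeq2 adjusted p = 0.00018). Lcn2, a secreted carrier of iron-binding siderophores, stood at 0.288, 0.0885, 0 and 0 CPM in WT, from at most 6 reads in a library, and at 3.5, 0.163, 1.07 and 3.56 in PS19 (4.31 ± 1.00, DESeq2 adjusted p = 0.00163). PS19 replicate 2 was below WT replicate 1 for Lcn2. Cd44, a receptor for hyaluronan, stood at 3.12, 4.65, 6.61 and 6.05 CPM in WT and 20.1, 4.66, 13.5 and 45.4 in PS19 (2.04 ± 0.54, DESeq2 adjusted p = 0.0217). PS19 replicate 2 was again inside the WT range. Aspg, an asparaginase, stood at 6.63, 4.91, 0.453 and 2.9 CPM in WT and 68, 8.56, 3 and 23.8 in PS19 (2.76 ± 0.82, DESeq2 adjusted p = 0.0302). For Aspg it was PS19 replicate 3 that lay inside the WT range, and WT replicate 3 was the lowest library of all. S1pr3, a receptor for sphingosine 1-phosphate, stood at 9.7, 10.1, 4.35 and 6.75 CPM in WT and 44.3, 12.5, 10.2 and 40.2 in PS19, with the low PS19 pair just above WT (1.79 ± 0.47, DESeq2 adjusted p = 0.024). The 5 pan-reactive genes not called were Serpina3n, Cp, Steap4, Timp1 and Hspb1, with log2 differences from 0.82 for Cp, which encodes ceruloplasmin, to 2.02 for Steap4, a metalloreductase. Serpina3n, a secreted protease inhibitor from a cluster of close paralogs, differed by 1.46 ± 0.49 (DESeq2 adjusted p = 0.208). Timp1, an inhibitor of matrix proteases, lies inside Syn1 and Cp overlaps Hps3, and since the strand setting of the counting is not given, reads of the partners may be mixed. The same limit holds for Synm, which overlaps Ttc23, and for Ptx3, which overlaps Veph1. It also holds for Gfap, Tgm1, Cd44, S1pr3, Ggta1, Fkbp5, Clcf1, Sphk1, Slc10a6 and Mt2, which overlap predicted gene models. Aspg, Cd109, Tnc and the core members Aldh1l1, Slc1a2, Slc1a3 and Glul overlap other annotated genes as well.

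The 3 A1 members, a part of the published A1 panel, differed unevenly and do not stand for the whole class. The 11 panel genes that are not members are given further below. They were pooled over the classes and had a median log2 difference of 1.98. Ggta1, which adds alpha-galactose to glycans, stood at 3.55, 3.23, 4.62 and 4.62 CPM in WT and 23.2, 5.53, 12.3 and 27.3 in PS19, without overlap (2.09 ± 0.42, DESeq2 adjusted p = 0.000532). Fkbp5, a co-chaperone induced by glucocorticoids, and Srgn, a proteoglycan of secretory granules, differed by 0.32 ± 0.28 and 0.79 ± 0.37 and were not called. In the A2 class DESeq2 called 2 of the 9 genes fitted, and the class median was 0.70. Tgm1 (chr14:55700009-55713926, minus strand), a transglutaminase that crosslinks proteins, stood at 0.48, 0.443, 0.0905 and 0.245 CPM in WT and 9.5, 0.975, 1.6 and 8.17 in PS19. The groups were separate, with replicates 1 and 4 again the high pair (3.93 ± 0.70, edgeR adjusted p = 0.112, DESeq2 adjusted p = 7.31e-06). Ptx3, a secreted pattern-recognition protein, stood at 0.384, 0.531, 0.181 and 0.286 CPM in WT and 2.74, 0.542, 1.47 and 1.68 in PS19 (2.16 ± 0.50, DESeq2 adjusted p = 0.0143). PS19 replicate 2 exceeded the highest WT library by little. Tm4sf1, a membrane protein of the transmembrane-4 family, stood at 7.78, 10.2, 6.34 and 7.44 CPM in WT and 18.4, 8.67, 8.32 and 16.5 in PS19, overlapping and not called (0.70 ± 0.27). Clcf1, a cytokine of the IL-6 family, and Emp1, an epithelial membrane protein, differed by 1.83 ± 0.56 and 1.40 ± 0.41, also without a call.

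None of the 7 reactive genes outside the panels was called. S100a6, a calcium-binding protein, stood at 5.38, 4.74, 2.54 and 4.91 CPM in WT and 17.7, 4.39, 9.79 and 31 in PS19 and was close to the threshold (1.86 ± 0.54, DESeq2 adjusted p = 0.0505). Stat3 itself differed by 0.90 ± 0.29 (DESeq2 adjusted p = 0.209), and its reads may be mixed with those of the overlapping Stat5a. Synm, an intermediate filament protein that pairs with vimentin, had the smallest difference of the reactive members (0.07 ± 0.21), at 71.3, 99.4, 88.3 and 75.6 CPM in WT and 89.5, 92.7, 96.1 and 75 in PS19. The filament gene Nes differed by 0.27 ± 0.21 and the matrix gene Tnc, the one member lower in PS19, by -0.20 ± 0.29. Mt1 and Mt2, which encode metallothioneins, differed by 0.54 ± 0.34 and 0.31 ± 0.58, with WT replicate 3 the highest WT library for both.

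**Figure D2:**
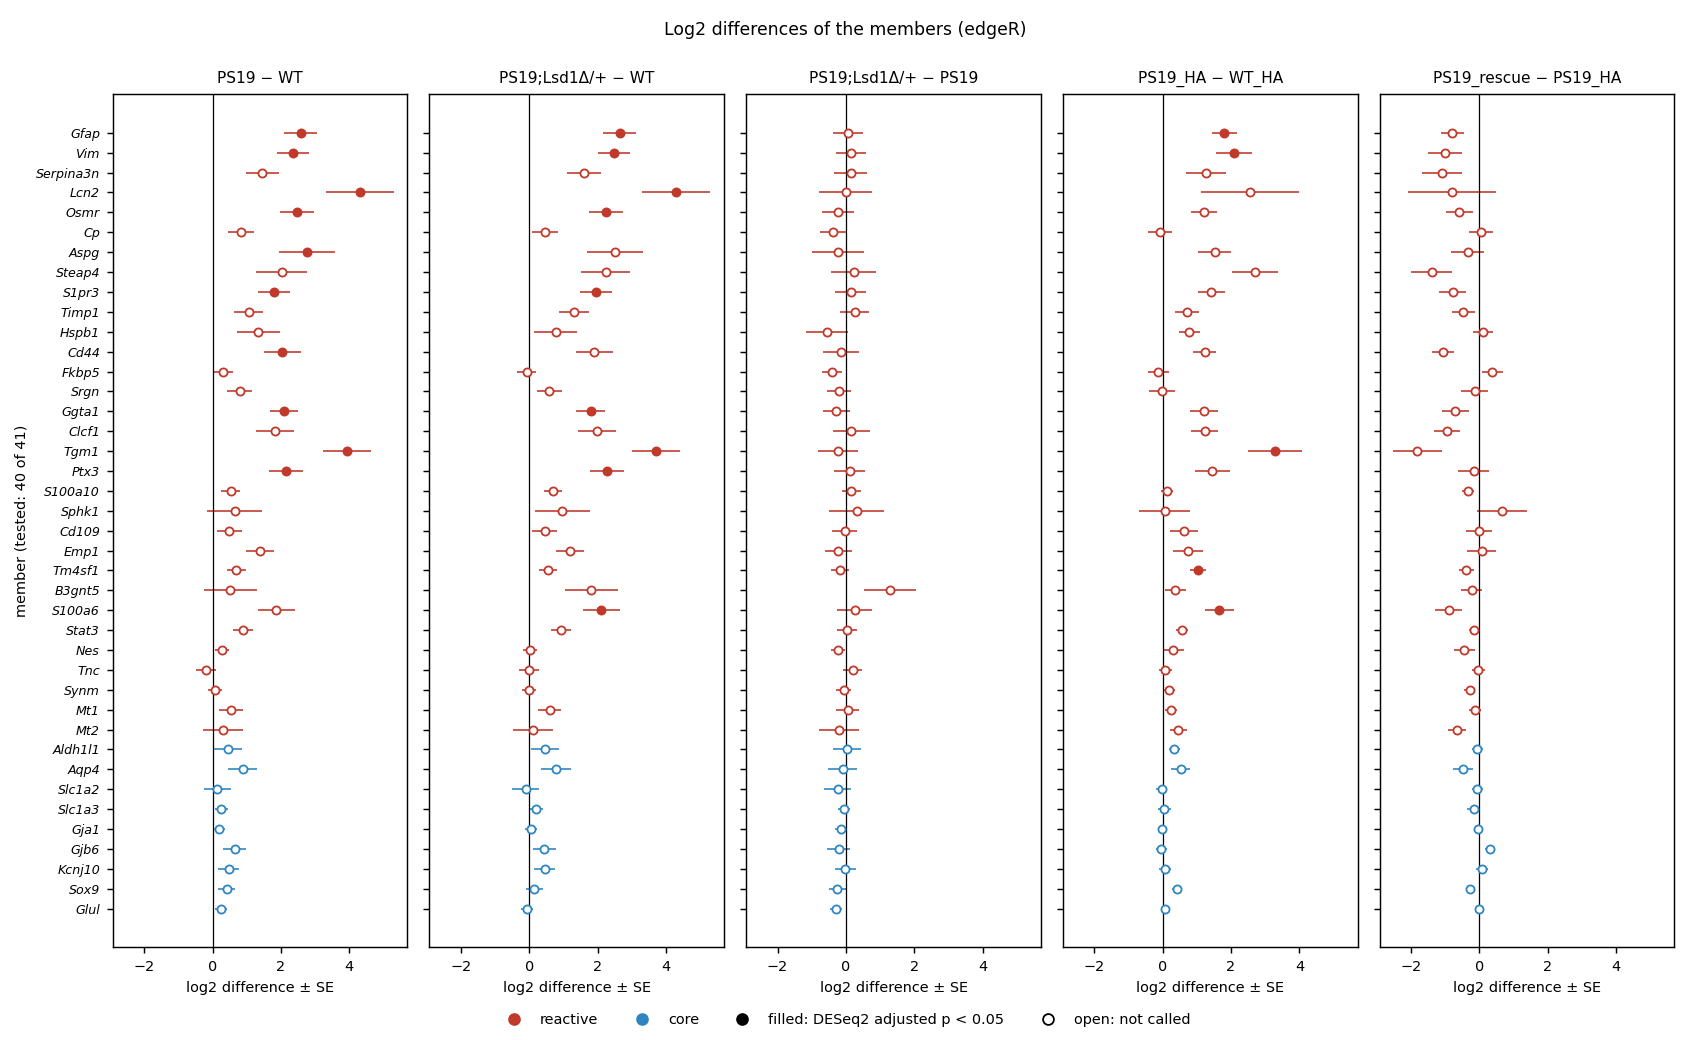
Log2 differences (x axis) with standard errors from edgeR for the 40 members fitted (y axis), reactive in red and core in blue, in 5 comparisons; filled points are those that DESeq2 called. Of the 31 reactive members 30 lie right of 0 for PS19 against WT and 26 lie left of 0 for PS19_rescue against PS19_HA.

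The split among the PS19 libraries ran through most reactive members. Replicates 1 and 4 were both above replicates 2 and 3 for 21 of 32 reactive and 4 of 9 core members. Replicate 2 was the lowest PS19 library for 22 reactive members, and it was at or under the highest WT library for 20 of the 32. No share over all genes was taken for these counts, so they do not set the members apart from other genes. The mean log2 level of the reactive members, relative to the mean of the WT libraries, was 1.69, 0.29, 0.70 and 1.51 in PS19 replicates 1 to 4 and between -0.15 and 0.17 in WT. Without PS19 replicate 2 edgeR called 9 members, in a fit that called 0.725% of all genes higher: Gfap, Vim, Lcn2, Osmr, Cd44, Ggta1, Tgm1, Ptx3 and Emp1. DESeq2 called Gfap, Vim, Lcn2, Osmr, Ggta1 and Tgm1 whichever of the 8 libraries was left out. These 6 were its only calls among the members without PS19 replicate 1 (0.325% of all genes higher), PS19 replicate 4 (0.396%) or WT replicate 4 (0.561%). Aspg, S1pr3, Cd44 and Ptx3 were each called in 3 of the 8 fits that left out a library. With the replicate number as a block DESeq2 called 16 members (1.63% of all genes higher). Within replicates 1 and 2 alone it called 1, Gfap (0.0898% of all genes), and within replicates 3 and 4 alone 8 (0.477%): Gfap, Vim, Lcn2, Osmr, Cd44, Ggta1, Tgm1 and S100a6. Without WT and PS19 replicate 3, the libraries of high mitochondrial share, it called 13 (1.28%).

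Markers of microglia were high in the same PS19 libraries. The summed level of 7 microglia markers was 251 to 268 CPM in WT and 669, 291, 282 and 646 CPM in PS19. Of these markers 6 of 7 were higher in PS19 (46.5% of all genes), 4 at an unadjusted edgeR p under 0.05 (3.45%). DESeq2 called 0 of these markers (0.929% of all genes higher), and none was at 0 in any library. The 5 neuron markers summed to 4449 to 9407 CPM in WT and 3477 to 7123 in PS19 and were lower on average for 5 of 5, with none called. Choroid plexus markers varied widely, at 69.8, 2201, 570 and 175 CPM in WT and 1614, 1023, 2211 and 272 in PS19. The 6 oligodendrocyte markers were higher for 6 of 6 (median 0.47) and summed to 3920 to 4524 CPM in WT and 4929 to 7330 in PS19, and the 3 ependyma markers for 3 of 3 (median 0.79), with none called. The part of these cells in the members' differences was not tested.

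**Figure D3:**
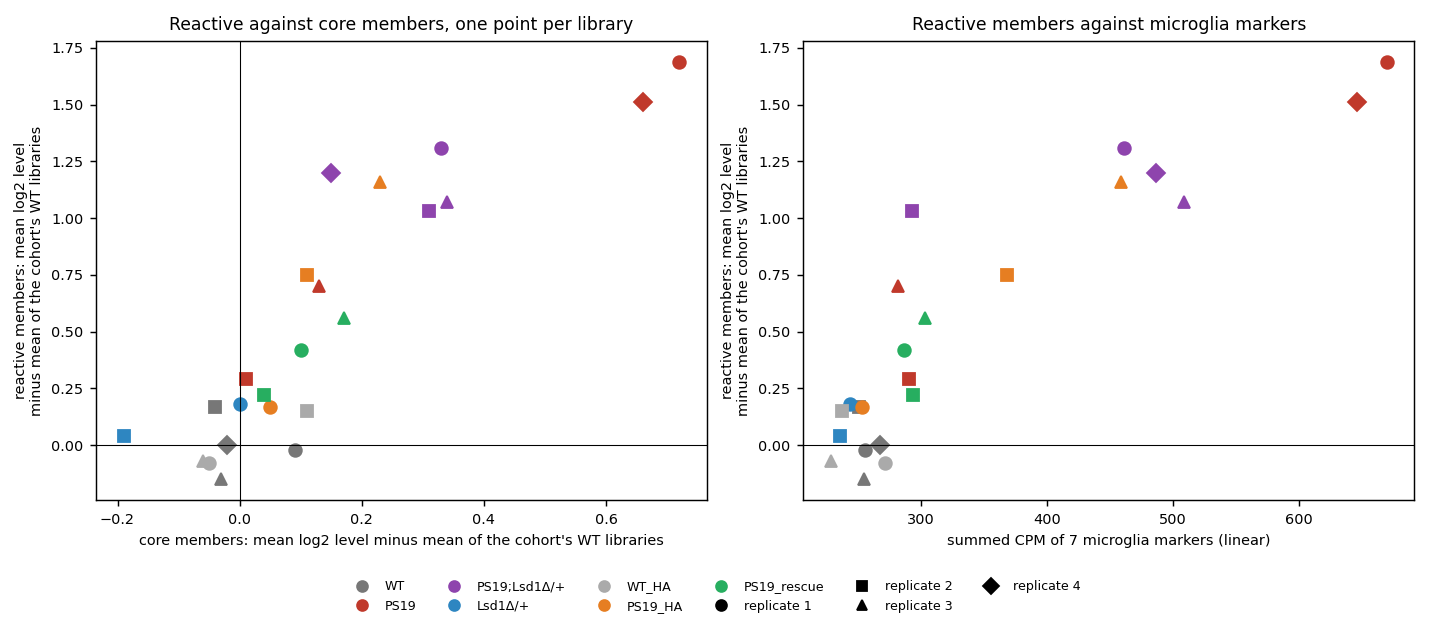
Each point is 1 library, coloured by group with a symbol for the replicate; the y axis is the mean log2 level of the 32 reactive members minus its mean in the WT or WT_HA libraries of the same age. The x axis is the same quantity for the 9 core members (left) and the summed CPM of 7 microglia markers (right); PS19 replicates 1 and 4 stand highest on all 3 measures.

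In PS19 heterozygotes the reactive members also stood above WT, and the libraries lay closer together than in PS19. Gfap stood at 2757, 1627, 1937 and 1652 CPM (2.64 ± 0.48 against WT, edgeR adjusted p = 0.258, DESeq2 adjusted p = 2.45e-05) and Vim at 196, 152, 152 and 154 CPM (2.49 ± 0.47, edgeR adjusted p = 0.272, DESeq2 adjusted p = 0.000108). All 4 libraries were above all WT libraries for both filament genes. Of 40 members 35 were higher than in WT (50.1% of all genes), 18 of them without overlap (3.35% of all genes higher and 1.05% lower without overlap). edgeR called 0 (0.00497% of all genes higher), with 19 higher at an unadjusted p under 0.05 (4.28%). DESeq2 called 9 higher and 0 lower (0.527% of all genes higher and 0.0199% lower): Gfap, Vim, Lcn2, Osmr, S1pr3, Ggta1, Tgm1, Ptx3 and S100a6. The median log2 difference was 1.31 over reactive members, 0.21 over core members and 0.00 over all genes.

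The transglutaminase gene Tgm1 stood at 5.88, 3.13, 4.48 and 3.92 CPM in PS19 heterozygotes, the receptor gene Osmr at 32.8, 17.2, 26.8 and 42.8 and the glycan enzyme gene Ggta1 at 16.1, 9.13, 15.2 and 16.2, each without overlap with WT. S100a6 stood at 16.2, 7.8, 26 and 25.5 CPM (2.11 ± 0.54, DESeq2 adjusted p = 0.0195), all above WT. Lcn2 at 1.98, 1.38, 1.14 and 3.8 CPM, Ptx3 at 2.72, 0.917, 1.44 and 1.9 and Cd44 at 18.7, 13.9, 25.6 and 19.4 were likewise above every WT library, with replicate 2 or 3 the lowest for each. S1pr3 stood at 50.1, 18.5, 27 and 23.7 CPM and Aspg at 36.5, 18.8, 13.9 and 17, with replicate 1 the highest for both. Tm4sf1, at 14.5, 10.5, 9.93 and 11.6 CPM, and Synm, at 100, 56.7, 77 and 103, overlapped WT. The median over the reactive members of the highest over the lowest library was 2 in PS19 heterozygotes, 4.35 in PS19 and 2.34 in WT. Without the library labelled PS19;Lsd1Δ/+ replicate 3 the reactive median was 1.27. DESeq2 then called 6 members (0.304% of all genes higher), with S1pr3, Ggta1 and S100a6 no longer among them. Without PS19;Lsd1Δ/+ replicate 1 it called 5 (0.268% of all genes higher), and with the replicate block 17 (2.64%). Within replicates 1 and 2 alone it called 1 (0.0792%), and within replicates 3 and 4 alone 6 (0.335%): Gfap, Vim, Lcn2, Osmr, Tgm1 and S100a6. edgeR fitted to these 2 groups alone called Gfap, Vim and Tgm1 (0.121% of all genes higher). Microglia markers summed to 462, 293, 509 and 486 CPM, and their part was not tested.

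No member was called between PS19 heterozygotes and PS19. edgeR called 0 (0% of all genes in either direction), 0 members had an unadjusted p under 0.05 (0.974% of all genes higher and 0.278% lower), and DESeq2 called 0 (0.00497% higher). The groups overlapped for all 40 members (0.388% of all genes did not overlap and were higher), and 16 members were higher and 24 lower (47.4% of all genes higher). The medians were -0.01 for reactive members, -0.15 for core members and -0.02 for all genes. Gfap differed by 0.06 (95% interval -0.90 to 1.03), Vim by 0.14 (-0.82 to 1.09), Osmr by -0.23 (-1.22 to 0.76) and Tgm1 by -0.23 (-1.50 to 1.05). These intervals leave room for sizeable differences in either direction. B3gnt5, a glycosyltransferase of glycolipids, had the largest difference (1.30, interval -0.34 to 2.93), at 1.09, 10.7, 1.02 and 1.31 CPM against 1.04, 0.379, 2 and 2.14 in PS19, so it rested on PS19;Lsd1Δ/+ replicate 2. Without the library labelled PS19;Lsd1Δ/+ replicate 3 the reactive median was -0.04 and DESeq2 again called 0 (0.015% of all genes higher).

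In Lsd1Δ/+ mice without the transgene the reactive members were near their WT levels in the median, with log2 differences of single members from -1.16 to 1.05. Gfap stood at 397 and 349 CPM, Vim at 36.3 and 30.6, Tgm1 at 0.404 and 0.393, Ggta1 at 4.35 and 3.42 and Lcn2 at 0.18 and 0.168, all inside the WT range. Aspg at 6.37 and 4.21 CPM, S1pr3 at 9.47 and 9.14, Cd44 at 3.64 and 3.53 and Ptx3 at 0.359 and 0.337 also lay inside it, while S100a6 at 5.84 and 4.66, Tm4sf1 at 11.2 and 9.31 and Synm at 95.6 and 105 had 1 library above it. Of 40 members 20 were higher and 20 lower (49% of all genes higher). edgeR and DESeq2 called 0 (0% of all genes higher by either), and 0 members had an unadjusted edgeR p under 0.05 (0.189% of all genes higher and 1.09% lower). The medians were 0.09 for reactive and -0.18 for core members. Both libraries were below every WT library for 4 members and above it for 0 (5.8% of all genes lower and 5.37% higher without overlap): Osmr, at 4.85 and 4.54 CPM, and the core members Aqp4, Slc1a2 and Slc1a3. With 2 libraries these medians were unstable: the reactive median was -0.09 without replicate 1 and the core median -0.02 without replicate 2. Lsd1Δ/+ holds replicates 1 and 2 alone, and WT replicates 3 and 4 stood above WT replicates 1 and 2 for Aqp4 and Slc1a2. The part of that shift in the core differences was not tested.

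No core member was called by either test in the fits over all libraries of an age. All 9 were higher on average in PS19 than in WT (46.5% of all genes), from 0.14 for Slc1a2 to 0.88 for Aqp4. In PS19 heterozygotes 7 of 9 were higher than in WT (50.1% of all genes). Aldh1l1, a folate enzyme used as a general astrocyte marker, stood at 74.6, 63.7, 18.7 and 44.7 CPM in WT, 115, 70.1, 26.6 and 65.4 in PS19 and 89.7, 81.2, 60.9 and 48.5 in PS19 heterozygotes (0.45 ± 0.41 for PS19 against WT). Replicate 3, with the highest mitochondrial share of its group in WT and PS19, was the lowest library in both. Aqp4, the water channel of the endfeet, stood at 127, 113, 266 and 209 CPM in WT, 273, 119, 367 and 565 in PS19 and 231, 316, 394 and 319 in PS19 heterozygotes (0.88 ± 0.43). In WT and PS19 its replicates 3 and 4 were above replicates 1 and 2. Slc1a2 stood at 2657, 2577, 3987 and 4325 CPM in WT, 3118, 2512, 4227 and 5096 in PS19 and 2716, 1342, 4717 and 3911 in PS19 heterozygotes, with replicates 3 and 4 on top in each group (0.14 ± 0.39). Gja1, the connexin of astrocyte gap junctions, stood at 269, 252, 251 and 237 CPM in WT, 356, 228, 254 and 328 in PS19 and 285, 274, 260 and 241 in PS19 heterozygotes (0.20 ± 0.17), and its groups overlapped throughout. In Lsd1Δ/+ Aldh1l1 stood at 73.5 and 51 CPM, Aqp4 at 109 and 105, Slc1a2 at 2487 and 2342 and Gja1 at 261 and 231. The mean log2 level of the core members relative to WT was 0.72, 0.01, 0.13 and 0.66 in PS19 replicates 1 to 4, so the core members were also highest in replicates 1 and 4. A further 20 astrocyte-enriched genes had a median log2 difference of 0.22 in PS19 against WT, 17 higher and 3 lower (46.5% of all genes higher). DESeq2 called none of these genes (0.929% of all genes higher).

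**Figure D4:**
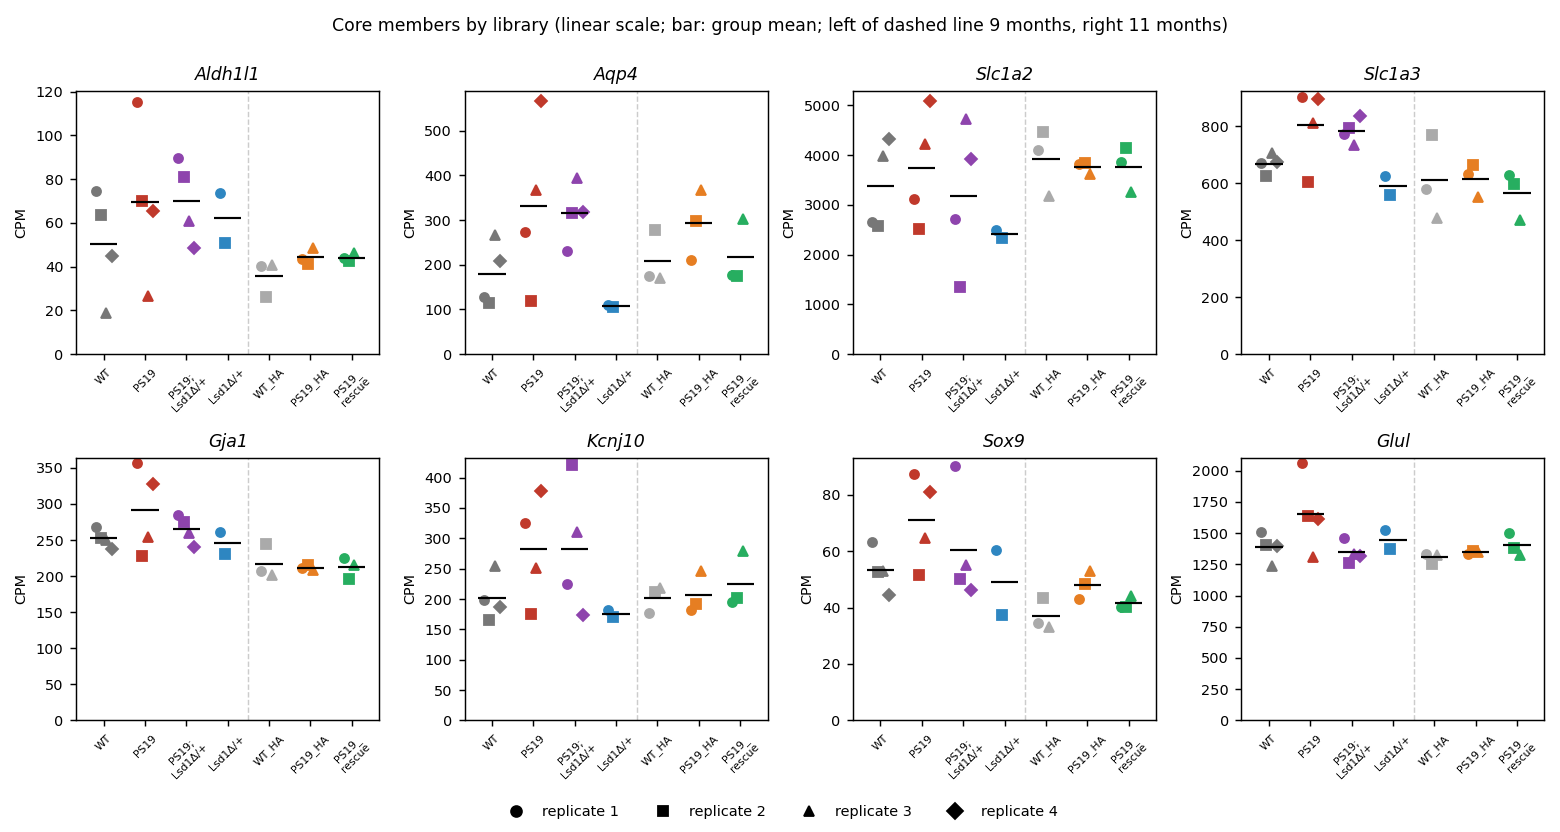
CPM (linear axis) of 8 core members in each library, by group, with symbols for the replicate number and bars for the group mean. At 9 months every group overlaps WT in every panel, other than Lsd1Δ/+ for Aqp4, Slc1a2 and Slc1a3 and PS19 heterozygotes for Slc1a3.

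At 11 months, with the control virus, the same filament genes stood above their controls in the tau mice. Gfap stood at 284, 289 and 214 CPM in WT_HA and 408, 990 and 1302 CPM in PS19_HA, without overlap (1.80 ± 0.36, n = 3 and 3, edgeR adjusted p = 0.454, DESeq2 adjusted p = 0.000483). Vim stood at 25.6, 29 and 29 CPM in WT_HA and 37.8, 84.9 and 224 in PS19_HA, also without overlap (2.08 ± 0.52, edgeR adjusted p = 0.454, DESeq2 adjusted p = 0.00924). PS19_HA replicate 1 was the lowest and replicate 3 the highest for both. Of 40 members 34 were higher (50.5% of all genes), 12 without overlap and 0 lower without it (6.32% and 7.76% of all genes): 11 reactive members and Aldh1l1. edgeR called 0 (0.0104% of all genes higher and 0.00518% lower), with 16 higher at an unadjusted p under 0.05 (5.91%), and DESeq2 called 5 higher (0.544%). The medians were 0.78 for reactive members, 0.06 for core members and 0.00 for all genes.

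Besides the filament genes DESeq2 called Tgm1, Tm4sf1 and S100a6. Tgm1 stood at 0.499, 0.0586 and 0.308 CPM in WT_HA and 0.639, 2.32 and 5.76 in PS19_HA (3.28 ± 0.79, DESeq2 adjusted p = 0.013). Tm4sf1 stood at 6.04, 4.27 and 7 CPM in WT_HA and 11.2, 9.88 and 13.7 in PS19_HA, with the PS19_HA libraries close together (1.03 ± 0.24, DESeq2 adjusted p = 0.0201). S100a6 stood at 4.79, 4.1 and 5.66 CPM in WT_HA and 7.37, 11.2 and 26.5 in PS19_HA (1.65 ± 0.42, DESeq2 adjusted p = 0.0226). The groups were separate for all 3. Steap4 differed by 2.70 ± 0.68 with separate groups and was not called (DESeq2 adjusted p = 0.0564). Among the members that DESeq2 called at 9 months and not at 11, Osmr stood at 6.62, 12 and 6.12 CPM in WT_HA and 8.94, 22.5 and 24.7 in PS19_HA, and Ggta1 at 5.41, 6.09 and 5.27 and 5.2, 13.3 and 19.4. Cd44 stood at 11.5, 10.6 and 6.35 CPM in WT_HA and 12.6, 19.8 and 32.8 in PS19_HA, and S1pr3 at 6.74, 6.15 and 5.66 and 6.98, 13.9 and 27.8. Cd44 and S1pr3 were without overlap, whereas PS19_HA replicate 1 lay inside the WT_HA range or below it for Osmr and Ggta1. Lcn2 stood at 0.291, 0.176 and 0.577 CPM in WT_HA and 0.0426, 0.498 and 5.76 in PS19_HA, with replicate 3 alone high. Aspg stood at 2.66, 1.23 and 3.27 and 3.24, 7.64 and 9.51 CPM, and Ptx3 at 0.291, 0.527 and 0.308 and 0.426, 0.83 and 1.7, overlapping in PS19_HA replicate 1. Synm stood at 80.7, 94.1 and 68.8 and 102, 94.9 and 75.4 CPM, and Cp, Srgn and Fkbp5 differed by -0.07 ± 0.35, -0.02 ± 0.39 and -0.13 ± 0.31.

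The 3 PS19_HA libraries also stood apart from each other. Replicate 3 was the highest for 25 of 32 reactive members and replicate 1 the lowest for 25, and replicate 1 was at or under the highest WT_HA library for 17. These counts were also taken without a share over all genes. The mean log2 level of the reactive members relative to WT_HA was 0.17, 0.75 and 1.16 in PS19_HA replicates 1 to 3. Gfap was the member that DESeq2 called whichever of the 6 libraries was left out. Without PS19_HA replicate 1 DESeq2 called 13 members (1.54% of all genes higher) and edgeR 1, Gfap (0.0304%). Without WT_HA replicate 2, the library of high mitochondrial share, DESeq2 called 6 (0.242%): Gfap, Serpina3n, Osmr, Mt1, Mt2 and the core marker Sox9, a transcription factor. It called 2 without PS19_HA replicate 2 (0.076%), PS19_HA replicate 3 (0.478%) or WT_HA replicate 1 (0.273%). It called 3 without WT_HA replicate 3 (0.401%) and 9 with the replicate block (1.12%). PS19_HA replicate 3 is the male-type library of its group. With a covariate for sex the reactive median was 0.78 and DESeq2 called 5 (0.55% of all genes higher). Microglia markers summed to 272, 237 and 229 CPM in WT_HA and 253, 368 and 459 in PS19_HA, with 6 of 7 higher (50.5% of all genes). Choroid plexus markers summed to 40, 128 and 918 CPM in WT_HA and 3074, 3435 and 374 in PS19_HA. The 3 ependyma markers summed to 8.53, 5.09 and 12.1 CPM in WT_HA and 20.5, 26.1 and 19.7 in PS19_HA. All 3 were higher without overlap (6.32% of all genes), with a median log2 difference of 1.47. DESeq2 called Rarres2, which encodes chemerin (0.544% of all genes higher). The 6 oligodendrocyte markers were higher for 6 of 6 (median 0.72, none called), at 3579, 2491 and 4595 CPM in WT_HA and 4349, 5430 and 5982 in PS19_HA. The part of any of these cell types was not tested. The 9-month and 11-month libraries differ in age, virus injection and make-up by sex, and these cannot be told apart. The tau difference at 9 months minus that at 11 months was 0.77 ± 0.64 for Gfap and 0.27 ± 0.71 for Vim. edgeR and DESeq2 called 0 members in it (0% of all genes), 0 had an unadjusted edgeR p under 0.05 (0.277% of all genes higher and 0.291% lower), and 33 of 40 were above 0 (46.1% of all genes).

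With the LSD1 virus 19 of 32 reactive members had means between those of WT_HA and PS19_HA, without a call and with no share over all genes taken. Gfap stood at 541, 459 and 623 CPM in PS19_rescue, above every WT_HA library and between PS19_HA replicates 1 and 2. Its log2 difference from PS19_HA was -0.79 (95% interval from -1.57 to just below 0, not adjusted for the number of members, as for those that follow). Vim stood at 67.3, 47.4 and 64 CPM (-1.01, interval -2.14 to 0.12) and Tgm1 at 0.709, 0.874 and 0.95 (-1.82, interval -3.43 to -0.22). Both were above WT_HA in every library, and PS19_HA replicate 1 was below every PS19_rescue library for both. S100a6 stood at 8.27, 6.99 and 9.88 CPM (-0.90, interval -1.81 to 0.02) and Tm4sf1 at 8.86, 7.36 and 11.6 (-0.38, interval -0.90 to 0.15). Against PS19_HA 8 of 40 members were higher and 32 lower (48.2% of all genes higher). edgeR called 0 (0% of all genes lower), with 6 lower at an unadjusted p under 0.05 (1.19% of all genes) and 0 higher: Gfap, Steap4, Cd44, Clcf1, Tgm1 and Mt2. DESeq2 called 0 (0.0104% of all genes lower), and without PS19_HA replicate 1 it called Gfap and Cd44 lower (0.0809%). The groups did not overlap for 2 members, both lower (1.87% of all genes): Cd44, at 10.8, 9.65 and 12 CPM, and Mt2, at 23.8, 20.7 and 27.2 CPM against 30, 39.2 and 39.4 in PS19_HA.

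The median log2 difference between PS19_rescue and PS19_HA was -0.38 for reactive members, -0.06 for core members and -0.01 for all genes, and with a covariate for sex the reactive median was -0.36. The mean of PS19_rescue fell between the means of WT_HA and PS19_HA for 19 of 32 reactive members. All 3 PS19_rescue libraries were under PS19_HA replicates 2 and 3 for 16 of the 32. The latter count leaves out PS19_HA replicate 1, the lowest of its group for most reactive members. No share over all genes was taken for either count. With replicate 1 kept, 2 members were lower without overlap. Relative to WT_HA the mean log2 level of the reactive members was 0.42, 0.22 and 0.56 in PS19_rescue, above the 0.17 of PS19_HA replicate 1. Against WT_HA 31 members were higher (50.3% of all genes), 12 without overlap (6.86%), with a reactive median of 0.49. edgeR called 0 of them (0.0156% of all genes higher), with 6 at an unadjusted p under 0.05 (2.33%), and DESeq2 called 0 (0.0829%). Osmr stood at 16.2, 11 and 11.6 CPM in PS19_rescue, Ggta1 at 8.68, 5.95 and 9.42, S1pr3 at 8.86, 9.69 and 10.9, Aspg at 5.14, 3.33 and 8.09, Ptx3 at 1, 0.79 and 0.95 and Synm at 68.6, 81.2 and 83.6. Osmr, Ggta1 and S1pr3 were under PS19_HA replicates 2 and 3 and above PS19_HA replicate 1 in every PS19_rescue library. Lcn2 stood at 3.31, 0.25 and 0.38 CPM, high in replicate 1 alone, and the 4 neutrophil markers, cells that also express Lcn2, summed to 9.98, 0.291 and 0.456 CPM. The part of those cells was not tested.

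The core members stayed close to the controls at 11 months. Aldh1l1 stood at 40.2, 26.2 and 40.7 CPM in WT_HA, 43.3, 41.1 and 48.4 in PS19_HA and 43.8, 42.5 and 46.2 in PS19_rescue, so both tau groups lay above WT_HA (0.34 ± 0.16 for PS19_HA). Aqp4 stood at 176, 278 and 170, 211, 298 and 368 and 177, 175 and 303 CPM in the same order of groups, with wide overlap. Slc1a2 stood at 4100, 4460 and 3182, 3823, 3843 and 3628 and 3864, 4150 and 3248 CPM, and Gja1 at 206, 244 and 202, 211, 215 and 208 and 226, 197 and 215. For Gja1 PS19_rescue differed from PS19_HA by -0.05 (95% interval -0.29 to 0.20). Kdm1a was highest in PS19_rescue replicate 1. That library was the highest of its group for 9 reactive members and the lowest for 9, and for Gfap it was neither. No share over all genes was taken, and a relation of the members to the Kdm1a level was not tested. Microglia markers summed to 287, 294 and 304 CPM in PS19_rescue, under PS19_HA replicates 2 and 3 and above replicate 1, and their part was not tested.

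Genes known to act upstream of the reactive state were measured in the same libraries. Of 16 genes of the gp130 and STAT3 route 14 were fitted at 9 months. Of these 13 were higher in PS19 than in WT (46.5% of all genes), with a median log2 difference of 0.25. An unadjusted edgeR p under 0.05 was reached by 3 of them, Socs3, Lif and Il6ra (3.45% of all genes higher). DESeq2 called 0 of the list (0.929% of all genes higher). Socs3, the feedback inhibitor that STAT3 induces, stood at 3.31, 2.88, 0.634 and 1.64 CPM in WT and 13.5, 3.63, 1.73 and 12.4 in PS19, with replicates 1 and 4 again the high pair (1.88 ± 0.64, DESeq2 adjusted p = 0.18). Il6st, which encodes gp130, differed by 0.35 ± 0.18. Of the members on that route DESeq2 called the receptor gene Osmr but neither the ligand gene Clcf1 nor Stat3. Of 7 microglial inducers of reactive astrocytes 6 were fitted and 6 were higher (46.5% of all genes). DESeq2 called C1qa, C1qb and C1qc, which encode the chains of complement C1q (0.929% of all genes higher). C1qa stood at 44.2, 38.9, 6.88 and 29.5 CPM in WT and 324, 63.2, 33.6 and 194 in PS19 (2.36 ± 0.63, DESeq2 adjusted p = 0.0134). Of 11 further genes of the A1, A2 and pan-reactive panels that are not members 11 were higher in PS19 (46.5% of all genes), with a median of 1.98. Among them DESeq2 called Cxcl10, H2-D1, Iigp1, Gbp2, Psmb8 and Cd14 (0.929% of all genes higher). Several of these are also made by microglia, and H2-D1 shares sequence with other class I genes, so its reads are uncertain. At 11 months DESeq2 called C1qa, C1qb, C1qc, Cxcl10 and H2-D1 in PS19_HA against WT_HA (0.544% of all genes higher) and no gene of the gp130 list. In PS19_rescue against PS19_HA the 5 microglial inducers fitted had a median of -0.75 and the 11 panel genes a median of -0.06. None of them was called (0.00518% of all genes higher and 0.0104% lower by DESeq2). Cxcl10, a chemokine, stood at 0.708, 0.351 and 0.423 CPM in WT_HA, 1.58, 3.4 and 3.29 in PS19_HA and 3.84, 3.87 and 1.1 in PS19_rescue, and DESeq2 called it in PS19_rescue against WT_HA (2.51 ± 0.55, DESeq2 adjusted p = 0.0231).

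STAT3 binds DNA as a dimer at the palindrome TTCNNNGAA, which reads the same on both strands. RefSeq promoter windows (GRCm38.p6) were found for 36 of the 41 members, and the 250 bases before the start site held the motif in 5 of them, or 13.9%, against 8.13% of 27025 genes with a window. Of the 29 reactive members with a window 4 held it. The matches are shown because they are the members whose start regions carry these letters: 5′ to 3′ on the gene's strand, with 10 bases on either side and the motif in capitals.
Steap4, 116 bases before the start site, chr5:7960346-7960374, plus strand: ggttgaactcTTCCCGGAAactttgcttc
Emp1, 120 bases before the start site, chr6:135362801-135362829, plus strand: tacaacagggTTCTTTGAAttgatggctc
Emp1, 22 bases before the start site, chr6:135362899-135362927, plus strand: tccagactgaTTCATAGAAactcctttaa
Sphk1, 41 bases before the start site, chr11:116531786-116531814, plus strand: ctgagtcaccTTCTCGGAAggcactcggg
Tgm1, 173 bases before the start site, chr14:55713647-55713675, minus strand: atgacctcagTTCCTAGAAaggagaaagt
Tgm1, 64 bases before the start site, chr14:55713538-55713566, minus strand: tcttccccttTTCCCAGAAactcggcccc
Slc1a3, 96 bases before the start site, chr15:8710885-8710913, minus strand: ttcaggatccTTCCAAGAAatttcagtta
Tgm1 and Emp1 hold 2 matches each. Sphk1 has a second RefSeq start, from which the same match lies 115 bases before. The windows of Emp1, Sphk1 and Tgm1 lie inside the span of the gene's own GENCODE model, downstream of its first annotated base, and the RefSeq start of Slc1a3 was not found in a GENCODE transcript. The log2 difference of PS19 from WT was 3.93 for Tgm1, 2.02 for Steap4, 1.40 for Emp1, 0.65 for Sphk1, a sphingosine kinase gene, and 0.25 for Slc1a3, a core glutamate transporter gene. A match describes the letters and not a bound site.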

How the data were processed

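The data are RNA-seq of poly(A)-selected hippocampal RNA in 23 mouse libraries of 7 groups. The authors deposited raw counts per gene identifier, 1 file per library, which the submitters' processing notes link to FastQC 0.11.7, Trimmomatic 0.36.5, HISAT2 2.1.0, featureCounts 1.6.0.6 and DESeq2 2.11.40.2 on GRCm38. The strand setting, the handling of reads that map to several places and the annotation release are not stated in the labels. Of 54232 identifiers 54079 matched a symbol, and the 153 unmatched ones held 0.05466% of reads.

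Groups came from the labels. Counts were fitted with edgeR 4.0.16 (R 4.3.3, limma 3.58.1) with TMM, robust quasi-likelihood and filterByExpr (minimum count of 10, minimum total of 15). Separate fits covered the 14 libraries of 9 months (20122 genes), the 9 of 11 months (19290 genes) and all 23 (20931 genes). The fit over all 23 gave the tau difference at 9 months minus that at 11 months. P-values were Benjamini-Hochberg adjusted over all genes fitted. DESeq2 1.42.0 was the alternative test. Intervals are 95% t intervals on edgeR's total degrees of freedom. The scripts were tested on simulated data, where DESeq2 made many more false calls than edgeR and exceeded its nominal false discovery rate at both ages, and edgeR exceeded it by less at 11 months alone. The biological coefficient of variation was 0.4227 at 9 and 0.2426 at 11 months, and no 2 replicates agreed within sampling noise.

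The members and lists were chosen with earlier results of these data known. Values in every library are printed for Gfap, Vim, each member called in at least 1 comparison (up to 12), Aldh1l1, Aqp4, Slc1a2, Gja1 and the reactive member of smallest difference.

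Replicate numbers were taken to pair libraries where every same-numbered pair's deviations correlated above 0.1. The correlations were 0.487 to 0.809 for PS19 and WT, 0.304 to 0.524 for PS19 heterozygotes and WT, 0.289 to 0.468 for PS19 heterozygotes and PS19, 0.101 to 0.277 for PS19_HA and WT_HA and 0.111 to 0.445 for PS19_rescue and WT_HA. For PS19_rescue and PS19_HA (0.063 to 0.229) and Lsd1Δ/+ and WT (0.032 to 0.062) they did not meet that rule. Libraries correlated best with their own number in 4 of 4 pairs for PS19 and WT and 3 of 3 for PS19_HA and WT_HA. That held in 2 of 4 for PS19 heterozygotes and WT, 0 of 4 for PS19 heterozygotes and PS19 and 2 of 3 for PS19_rescue and WT_HA. The rule therefore does not show that same-numbered libraries are matched pairs. Alternatives were other size factors, no filter, no mitochondrial genes, the compared groups alone, the replicate block, replicates 1 and 2 or 3 and 4 alone, a sex covariate and leaving out each library. The DESeq2 fits without single libraries, with the block, within replicate pairs and with sex, and the fits without libraries of over 16% mitochondrial reads, were chosen after seeing the data.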

Additional observations from a re-analysis of the deposited data

Results flagged for a closer look

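In groups of 4, a library was picked out where its gap to the nearest of the others was larger, as a share of the group's range, than Dixon's 95% critical value. That held for 10 of 119 pairs of a member and a group, and chance alone gives about 1 in 20.

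In WT, Steap4 stood at 0.664 CPM in replicate 2, and Srgn at 7.06 CPM and Mt2 at 80.9 CPM in replicate 3, each far above the other WT libraries. In PS19, Sphk1 stood high in replicate 1 at 5.72 CPM and Tnc high in replicate 2 at 8.99 CPM. In PS19;Lsd1Δ/+, Vim stood high in replicate 1 at 196 CPM. PS19;Lsd1Δ/+ replicate 2 was high for Hspb1 at 7.41 CPM, Sphk1 at 9.06 CPM and B3gnt5 at 10.7 CPM, and low for Ggta1 at 9.13 CPM.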

How the results depend on the processing

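For PS19 against WT, edgeR called 0 members (0.00497% of all genes higher) and DESeq2 10 (0.929%), while edgeR without single libraries called 0 to 9 (0.00499% to 0.725%). The DESeq2 count was 16 with the replicate block, 1 within replicates 1 and 2, 8 within replicates 3 and 4, and 6 to 14 without single libraries. Those fits called 1.63%, 0.0898%, 0.477% and 0.325% to 1.66% of all genes higher. For PS19 heterozygotes against WT, edgeR called 0 (0.00497% of all genes higher), DESeq2 9 (0.527%) and edgeR on the compared groups alone 3 (0.121%). The DESeq2 count was 17 with the replicate block, 1 within replicates 1 and 2, 6 within replicates 3 and 4, and 5 to 9 without single libraries. Those fits called 2.64%, 0.0792%, 0.335% and 0.259% to 0.411% of all genes higher. Their reactive median of 1.31 was 1.47 without a filter, 1.17 within replicates 3 and 4 and 1.24 to 1.52 without single libraries, and the core median of 0.21 was 0.09 within replicates 3 and 4.

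For PS19_HA against WT_HA, DESeq2 called 5 (0.544% of all genes higher) where edgeR called 0 (0.0104%), and edgeR without single libraries called 0 to 1 (0% to 0.0304%). DESeq2 called 9 with the replicate block (1.12%) and 2 to 13 without single libraries (0.076% to 1.54%). For PS19_rescue against PS19_HA, DESeq2 without single libraries called 0 to 2 (0.00505% to 0.183% of all genes lower). Within the fits that left out a library, medians also moved for Lsd1Δ/+ against WT (reactive from -0.09 to 0.20, core from -0.28 to -0.02) and for PS19_rescue against WT_HA (core from 0.01 to 0.17). The replicate block changed no other count of calls by over 1.5 times. DESeq2 called 24 differences of single members, and in its 182 refits of these without 1 library 127 were still called, 55 were not and 0 changed sign. The causes were not tested.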
